A study of Mus musculus with 3 samples.

Results

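Among the GFP+ cells sorted from the neocortex (NCx) of *Sst-Cre; RCEloxP* mice for their *Sst* history, a small number carried transcripts of excitatory cortical neurons. They were taken as the cells with at least 2 UMIs of *Neurod6* and at least 1 UMI of *Neurod2*, among cells with more than 700 genes detected and less than 10% mitochondrial UMIs, where a UMI (unique molecular identifier) counts 1 captured RNA molecule. The rule found 76 such cells among 9433 cells that passed both limits, of 12324 in all. They were 38 of 3952 cells at embryonic day 16.5 (E16.5; 0.962%, 95% Clopper-Pearson interval 0.681 to 1.32), 27 of 2501 at postnatal day 1 (P1; 1.08%, 0.713 to 1.57) and 11 of 2980 at P5 (0.369%, 0.184 to 0.660). Cells with at least 1 UMI of *Lhx6*, a transcription factor of interneurons from the medial ganglionic eminence, and with neither *Neurod6* nor *Neurod2* served as the reference, with 3297, 1940 and 2261 cells.

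All 3 groups carried the same driver and reporter, and the labels name no other allele or agent. *Sst-Cre* expresses Cre recombinase where the somatostatin gene is or was active, and *RCEloxP* then expresses GFP permanently, so the sort selects a history of Cre and not present *Sst* transcription. The NCx of 6 embryos was pooled at E16.5 and that of 3 pups at P1 and at P5, and GFP+ cells negative for DAPI, a dye that enters dead cells, were made into 1 10x Genomics library per stage. The cells of P1 and P5, but not of E16.5, went through percoll, and those of P5 also through trypsin, so that stage and preparation cannot be told apart. Because each stage is a single library, neither stages nor groups could be tested against each other. All intervals cover the counting error of UMIs or cells only and say nothing about variation between animals.

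Excitatory neurons of the NCx arise from dorsal progenitors, whereas *Sst* neurons arise in the ventral telencephalon and migrate into the cortex. Excitatory neurons release glutamate, which vesicular transporters such as *Slc17a7* (VGLUT1) and *Slc17a6* (VGLUT2) load into vesicles, and GABAergic neurons make GABA with *Gad1* and *Gad2* and load it with *Slc32a1*. In the dorsal lineage, *Neurog2* and *Eomes* mark progenitors on their way to neurons, *Neurod2* and *Neurod6* follow in the young neuron, and *Bcl11b*, *Fezf2*, *Sox5* and *Tbr1* set neurons of layers 5 and 6, which project out of the cortex, apart from those of the upper layers, which connect within it.

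*Neurod6* (chr6:55677822-55681263, minus strand, GRCm38) and *Neurod2* (chr11:98325415-98329648, minus strand) are basic helix-loop-helix factors and chose the cells, so their levels are a description only. A cell held a lowest, median and highest *Neurod6* count of 2, 9.5 and 31 UMIs at E16.5, 2, 8 and 16 at P1, and 2, 3 and 5 at P5. *Neurod2* counts were 1, 8 and 18 UMIs at E16.5, 1, 5 and 13 at P1, and 1, 1 and 3 at P5. The medians thus lay well above the limits of the rule at E16.5 and P1 and close to them at P5, while the lowest counts were at the limits in each library. Counts per cell also depend on depth, which was lowest at P5. The cells just inside, with 2 or 3 *Neurod6* UMIs, numbered 2, 6 and 6, and 1, 1 and 5 of them held *Slc17a7*. The cells just outside, with 1 *Neurod6* UMI and *Neurod2*, numbered 4, 6 and 3, of which 1, 2 and 3 held *Slc17a7*. Cells with 2 or more *Neurod6* UMIs but no *Neurod2* numbered 4, 3 and 3, of which 0, 1 and 2 held *Slc17a7*. At P5 the rule therefore left out cells with the vesicular transporter beside those it kept. Of the *Lhx6*+ cells, 16 of 3318, 18 of 1966 and 2 of 2266 held a *Neurod6* UMI. A stricter rule of 3 *Neurod6* and 2 *Neurod2* UMIs left 3 cells at P5, leaving out cells with any *Lhx6*, *Gad1* or *Gad2* UMI left 28, 17 and 10, and limits of 1000 genes and 5% mitochondrial UMIs left 1 of 673 cells at P1. No cell of the rule shared its barcode with another library, although 3, 1 and 6 barcodes were shared between E16.5 and P1, E16.5 and P5, and P1 and P5.

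The *Neurod6*+ *Neurod2*+ cells, called *Neurod6*+ cells from here on, were deeper than the reference at E16.5 and P1 and of like depth at P5. Their median was 12345, 7037 and 4334 UMIs per cell against 5817, 3835 and 4524 in the reference, with ranges of 3196 to 42007, 2388 to 20497 and 2309 to 7183. Their summed UMIs were 506488, 233415 and 48960, so that 1 UMI stood for 1.97, 4.28 and 20.4 CPM, the usual scale on which the UMIs of a cell group sum to the same total. A gene at 0 among the 11 cells of P5 may thus still be present below 61.3 CPM, the level of 3 UMIs. Levels are CPM of the summed UMIs, folds compare these with the reference of the same library, and 2-fold is a rule of size, not a test. Folds against a group with 0 UMIs were computed against a floor of 3 counts over that group and are lower bounds.

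The label of excitatory neurons was checked on genes that the rule did not use, and in all 3 libraries most of these were present in the *Neurod6*+ cells and rare in the reference. Of 22 genes listed for this identity, 19, 15 and 7 passed a filter of 5 expected UMIs, and 18, 14 and 6 of those were at least 2-fold higher than in the reference, with a median log2 ratio of 6.12, 6.05 and 6.30. Over all genes tested, 6.29% of 8875, 5.82% of 7176 and 11.7% of 2094 were at least 2-fold higher, and the median log2 ratio was -0.069, -0.0023 and 0.097. A gene near 0 in the reference could pass the filter only by being higher in the *Neurod6*+ cells, so the counts describe the genes that passed and not the whole list. The exception in each library was *Mpped1*, at 0.738, 1.17 and 1.08-fold the reference level.

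*Slc17a7* (chr7:45163949-45176142, plus strand), the defining transporter of cortical glutamate neurons, had 62 UMIs in 16 of 38 cells at E16.5, 40 in 10 of 27 at P1 and 52 in 10 of 11 at P5. The level was 122 CPM (93.9 to 157), 171 CPM (122 to 233) and 1062 CPM (793 to 1393), against 4, 2 and 2 UMIs in the whole reference. The cells that held it were 42.1%, 37.0% and 90.9% against 0.121%, 0.0515% and 0.0885% of the reference, which should lack it. Drawing 2000 UMIs from each cell dropped no *Neurod6*+ cell and 170, 336 and 273 shallower reference cells, and it was seen in 4 of 38 (10.5%, 2.94 to 24.8), 7 of 27 (25.9%, 11.1 to 46.3) and 8 of 11 (72.7%, 39.0 to 94.0). At equal depth the interval of P5 lay above that of E16.5 and overlapped that of P1. At E16.5 the gene was uneven, as 1 cell held 29 of the 62 UMIs.

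*Slc17a6*, the transporter of the early glutamate neuron, had 27 UMIs in 14 cells at E16.5, 6 in 2 at P1 and 0 at P5, with 0 in every reference cell. It was at least 381-fold higher than the reference at E16.5. At P5 the floor of 3 UMIs equals 61.3 CPM, above the E16.5 level of 53.3 CPM, so its loss could not be detected at this depth.

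*Zbtb18* (chr1:177442351-177450764, plus strand), a repressor needed for excitatory neuron differentiation, was found in nearly every cell: 36 of 38, 26 of 27 and 10 of 11, against 3.34%, 2.94% and 2.30% of reference cells, and in 26, 22 and 8 cells at 2000 UMIs each. Its level was 527, 934 and 797 CPM, 96.6-fold (77.4 to 121), 144-fold (108 to 194) and 162-fold (104 to 250.1) above the reference. *Nrgn* (chr9:37544492-37552904, minus strand), which encodes the postsynaptic calmodulin-binding protein neurogranin, was at 774, 1804 and 5515 CPM, which was 173-fold (138 to 218), 112-fold (92.8 to 135) and 59.1-fold (51.5 to 67.6) above the reference. *Tbr1* (chr2:61802930-61814114, plus strand) was at 118, 197 and 204 CPM, or 195, 235 and 368-fold the reference. *Camk2a*, the kinase of excitatory synapses, was lower in the first 2 libraries (71.1 and 34.3 CPM) than at P5 (469.8 CPM) and was 10.2, 2.26 and 11.4-fold the reference level. These genes, *Slc17a7* included, were at least 2-fold higher in each library.

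Several other genes of the list were found mainly at E16.5 and P1. *Bhlhe22*, a factor of projection neurons, was at 357 CPM in 25 cells at E16.5 and 278 CPM in 13 cells at P1, with 2 UMIs in each reference, and had 0 UMIs at P5, at least 5.83-fold lower than at E16.5. *Lhx2*, which regulates cortical progenitors and upper-layer neurons, was at 237 and 176 CPM (20 and 18 cells) and had 0 UMIs at P5. *Fezf2*, the selector of subcerebral projection neurons, went from 86 UMIs in 18 cells (169.8 CPM) at E16.5 to 6 UMIs in 4 cells (25.7 CPM) at P1 and 0 at P5. *Emx1*, the dorsal telencephalic homeobox gene, was present in 22, 6 and 2 cells (75.0, 34.3 and 40.8 CPM). *Neurod1* had 14, 5 and 1 UMIs.

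**Figure D1:**
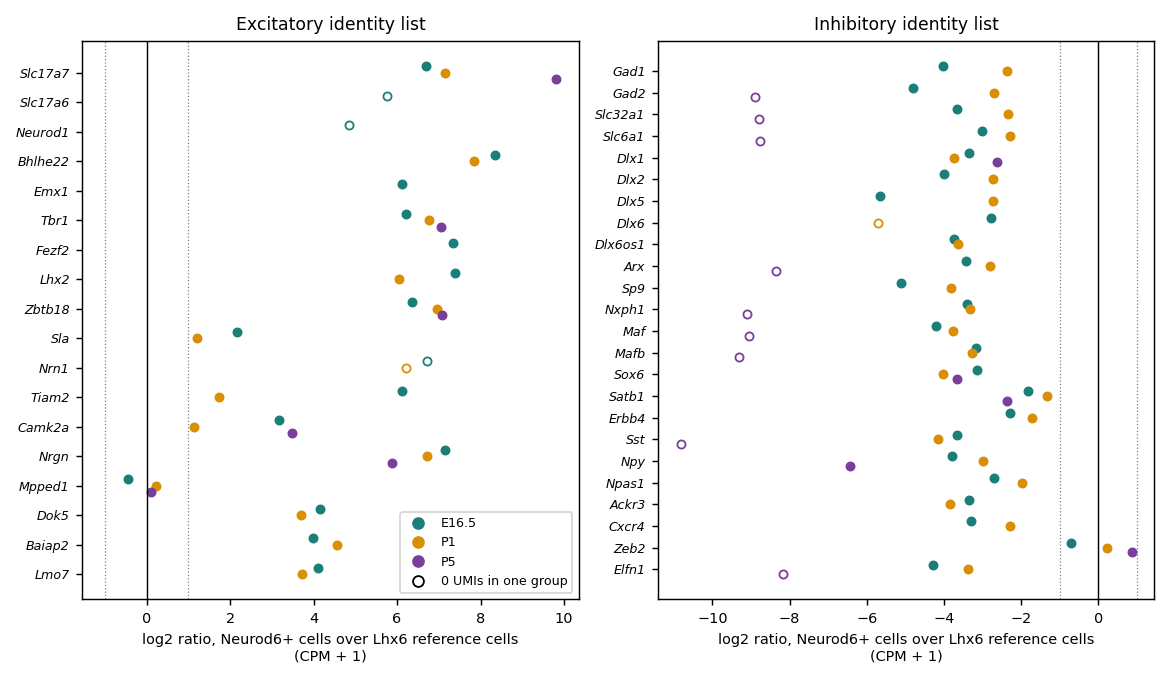
Log2 ratio of *Neurod6*+ cells over *Lhx6*+ reference cells (CPM plus 1) for genes listed for excitatory neurons (left) and for inhibitory neurons (right), with teal for E16.5, orange for P1 and purple for P5. Open symbols have 0 UMIs in one of the groups, and the dotted lines mark a ratio of 2 either way. Most of the excitatory genes lie right of the upper line, and the inhibitory genes lie left of the lower line with the exception of *Zeb2*.

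NEUROD factors bind E-boxes, and the core CAGATG is a form they are known to prefer. On the other strand it reads CATCTG. Promoters of 4 genes that were higher in each library (Nrgn, Zbtb18, Tbr1 and Slc17a7) were taken from the RefSeq annotation on GRCm38.p6 as windows of 250 bases before to 50 after a start. The letters, which do not overlap another motif searched, occurred on either strand in 17.2% of all 32851 promoters and in 9 of the 26 promoters of 15 genes of the excitatory list. Of those 9, 5 are windows of Zbtb18 alone, so no excess is read from these counts. The Nrgn promoter and the first of 5 Zbtb18 promoters are shown because they hold the core, in capitals, and belong to the genes found across all libraries.

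Nrgn, chr9:37552696-37552995, minus strand: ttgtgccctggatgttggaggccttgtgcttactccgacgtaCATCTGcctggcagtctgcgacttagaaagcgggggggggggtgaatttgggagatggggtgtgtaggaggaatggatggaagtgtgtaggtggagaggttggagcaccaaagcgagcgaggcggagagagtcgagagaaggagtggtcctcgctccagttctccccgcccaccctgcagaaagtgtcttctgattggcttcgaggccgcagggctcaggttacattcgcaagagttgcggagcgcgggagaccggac

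Zbtb18, chr1:177442101-177442400, plus strand: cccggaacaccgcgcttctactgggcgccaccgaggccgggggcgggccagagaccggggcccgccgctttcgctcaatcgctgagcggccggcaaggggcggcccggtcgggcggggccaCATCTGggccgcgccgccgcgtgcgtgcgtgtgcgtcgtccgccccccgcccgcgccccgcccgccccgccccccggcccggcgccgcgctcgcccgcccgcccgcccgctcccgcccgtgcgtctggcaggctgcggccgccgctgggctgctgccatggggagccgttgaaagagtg

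All 5 Zbtb18 windows, some of which overlap, held 1 match each, and the windows of Tbr1 and Slc17a7 held none. A match is a description of the letters and not a binding site, and the search was made with the levels known.

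The genes of inhibitory identity were low in the *Neurod6*+ cells. Of 28 genes listed, 24, 24 and 14 passed the filter, and 23, 23 and 13 were at least 2-fold lower than in the reference, where 6.74%, 6.42% and 8.26% of all genes tested were lower. The median log2 ratio of the list was -3.43 and -2.90 at E16.5 and P1, and -8.55 at P5, where genes at 0 UMIs set it (-2.90 with these genes at their bound). The reference was chosen by *Lhx6*, which the list does not hold, but genes that accompany *Lhx6* were thereby favoured in it. The exception was *Zeb2*, a factor that both lineages use, at 0.615, 1.17 and 1.82-fold the reference level. Summed without *Zeb2* and *Satb1*, the inhibitory genes that passed stood at 8.25% (7.53 to 9.02), 11.3% (10.2 to 12.5) and 1.07% (0.393 to 2.33) of the reference.

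The GABA enzymes were low at E16.5 and P1 and had no UMI at P5. *Gad1* had 8, 13 and 0 UMIs and was at 15.8, 55.7 and 0 CPM against 274, 292 and 158 CPM in the reference, and *Gad2* had 5, 13 and 0 UMIs, 9.87, 55.7 and 0 CPM against 300.1, 370.2 and 474 CPM. *Slc32a1* had 11, 10 and 0 UMIs against a reference level of 288, 223 and 444 CPM. *Gad1* was seen in 5 of 38, 5 of 27 and 0 of 11 *Neurod6*+ cells and in 70.9%, 60.1% and 47.4% of the reference. At 2000 UMIs per cell it remained in 1, 1 and 0 *Neurod6*+ cells. None of 11 cells at P5 held a UMI of *Gad1* or *Gad2*. A count of 0 is taken to allow up to 3, so that cells with a UMI of either, which are not all the cells that express it, may make up to 27.3%.

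*Sst* itself, the gene whose Cre history defined the sort, was low as well. It had 119, 29 and 0 UMIs, which gave 235, 124 and 0 CPM against 2983, 2248 and 1809 CPM in the reference, and was at least 29.5-fold lower at P5. It was seen in 16 of 38 (42.1%, 26.3 to 59.2) *Neurod6*+ cells at E16.5, 6 of 27 (22.2%, 8.62 to 42.3) at P1 and 0 of 11 at P5 (3 counts would allow up to 27.3% of cells with a UMI), against 76.6%, 75.2% and 75.4% of the reference. After thinning 5, 2 and 0 cells held it.

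Many of the remaining inhibitory transcripts were concentrated in few cells, but those of *Npy* were not. Across *Lhx6* and the 28 listed genes, 4 cells of E16.5 held 15 to 20 genes and 3 cells of P1 held 15 to 19, whereas the other cells held at most 11, 7 and 3 (E16.5, P1 and P5). This limit of 15 genes was chosen after the values were seen. The 4 cells held 72 of the 119 *Sst*, 7 of the 8 *Gad1* and 13 of the 17 *Lhx6* UMIs of E16.5. The 3 cells held 26 of 29 *Sst*, 9 of 13 *Gad1*, 12 of 13 *Gad2* and 22 of 25 *Lhx6* UMIs of P1, and no *Slc17a7*. Most *Gad2* UMIs of E16.5 and most *Npy* UMIs of both libraries lay in other cells, and *Npy* is part of the sums below. These 7 cells had 12793 to 19863 and 13406 to 19192 UMIs, above the median of their libraries. Doublets were not called, and whether these are pairs of cells was not tested. Without them the sum of the listed genes, which leaves out *Lhx6*, *Zeb2* and *Satb1*, was 3.82% (3.30 to 4.40) of the reference at E16.5 and 7.49% (6.50 to 8.59) at P1.

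**Figure D2:**
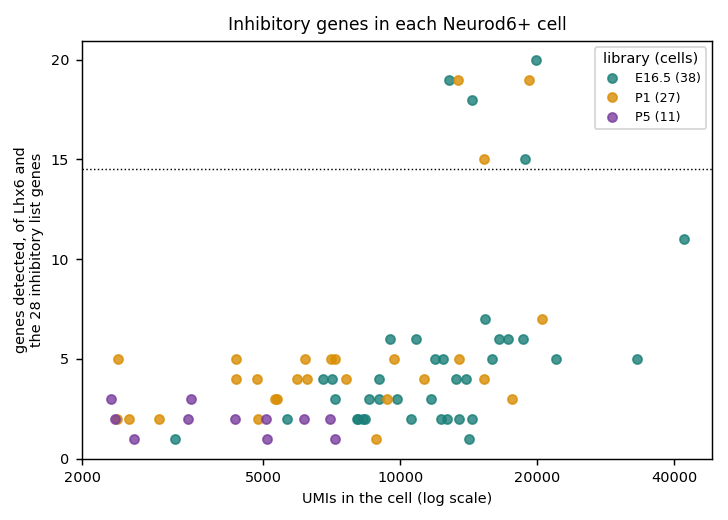
Number of inhibitory genes detected, out of *Lhx6* and 28 listed genes, in each of the 76 *Neurod6*+ cells against its UMIs (log axis), coloured by library. The dotted line separates the 4 cells of E16.5 and 3 cells of P1 with 15 or more genes from the remainder, where the highest number is 11.

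Layer genes were higher than in the reference on both sides of the upper to deep axis. Of 52 genes matched on lists for upper layers, layer 5, layer 6 and subplate, 38, 34 and 13 passed the filter. At least 2-fold higher were 25, 23 and 8 of these, where 6.29%, 5.82% and 11.7% of all genes tested were higher, and 3, 4 and 2 were lower. The filter again favoured genes that are high in the *Neurod6*+ cells, and without it 31 of 51, 32 of 52 and 24 of 50 genes were higher. The upper-layer list had 9 of 16, 11 of 16 and 2 of 4 genes higher, the layer 5 list 8 of 11, 6 of 9 and 3 of 6, and the layer 6 list 10 of 12, 8 of 11 and 4 of 4. Of the subplate list only *Kcnab1* passed, at E16.5 (1.29-fold), while *Nxph4*, a subplate marker below the filter, had 9 UMIs in 8 cells of E16.5 and 0 in the reference.

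In the upper-layer list, *Pou3f1*, a POU factor of upper-layer neurons, was at 261, 209.9 and 61.3 CPM against 1.91, 0.523 and 0.463 CPM in the reference. The P5 value rests on 3 UMIs in 3 cells, below the filter. *Rorb*, a gene of layer 4, was at 86.9 and 141 CPM, 20.0-fold and 32.2-fold the reference, and had 0 UMIs at P5. *Pou3f2* was 18.5-fold and 2.14-fold the reference. *Lmo4*, a LIM-only cofactor, was at 269, 737 and 1695 CPM, or 1.02-fold (0.855 to 1.21), 2.35-fold (2.01 to 2.75) and 7.06-fold (5.61 to 8.79) the reference. *Cux2*, an upper-layer homeobox gene, was below the reference, at 15.1% (9.06 to 23.5) of it at E16.5 and 30.5% (19.7 to 45.1) at P1, with 0 UMIs at P5. At P1 the 3 cells with 15 or more inhibitory genes held 12, 3 and 1 *Cux2* UMIs, and no other cell held more than 4. *Cux1* was at 0.557-fold and 1.28-fold the reference level.

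In the layer 5 list, *Ldb2* and *Ptprk* were higher in each library, *Ldb2* at 65.2, 176 and 388 CPM (5.15, 11.1 and 26.0-fold) and *Ptprk* at 75.0, 239.9 and 368 CPM (20.6, 25.5 and 27.6-fold). *Bcl11b* (chr12:107910403-108003602, minus strand), the factor of subcerebral projection neurons, which inhibitory neurons use as well, was at 764, 283 and 266 CPM and thus 1.74, 0.713 and 1.45-fold the reference. *Etv1* was at 2.85% (0.0722 to 15.9) of the reference at E16.5 and 76.0% at P1. *Thy1* was at 22.1, 4.36 and 1.05-fold the reference.

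In the layer 6 list, *Sox5*, a factor of corticofugal neurons, was at 464, 321 and 388 CPM (28.9, 30.4 and 52.4-fold), and *Nfia* at 594, 283 and 306 CPM (43.6, 84.4 and 221-fold). *Rprm* was at 731, 159 and 306 CPM (14.1, 36.1 and 118-fold), and *Tle4*, a corepressor of layer 6 neurons, at 126, 179.9 and 143 CPM (5.98, 2.80 and 2.96-fold). A single cell held 22 of the 42 *Tle4* UMIs at P1 and 6 of the 7 at P5, where *Tle4* was below the filter. *Foxp2* was 7.86-fold and 24.6-fold the reference at E16.5 and P1, with 13 UMIs in 5 cells and 12 UMIs in 3 cells. *Grik3* was the gene of this list below the reference, at 36.5% and 47.3%.

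*Bcl11b* and *Tbr1*, which mark subcerebral and corticothalamic neurons, were counted cell by cell, and no association is read from the counts. At E16.5 *Bcl11b* was in 31 cells, *Tbr1* in 24 and both in 20, and at 2000 UMIs per cell in 23, 8 and 7. At P1 the counts were 13, 19 and 12, and 7, 8 and 4 after thinning, and at P5 7, 7 and 4, and 3, 3 and 1.

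Summing the upper list against the deep lists (layers 5 and 6 and subplate) in each cell gave a wide spread. *Lmo4* alone made up 136 of 966, 172 of 738 and 83 of 121 upper UMIs, so that the upper sum at P5 was mostly this gene. At E16.5 the upper sum was the larger in 16 cells, the deep sum in 21, and they were equal in 1; at P1 the split was 15 and 12, and at P5 2 and 9. The upper share of both sums had a lowest, median and highest value of 0%, 31.0% and 83.0% at E16.5, 11.1%, 55.6% and 88.6% at P1, and 24.4%, 38.1% and 66.7% at P5. Between 40% and 60%, close to the line, lay 5, 5 and 3 cells. The cells with the larger deep sum were deeper at E16.5 and P1 (medians of 14397 and 8183 UMIs) than those with the larger upper sum (9241.5 and 6227).

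**Figure D3:**
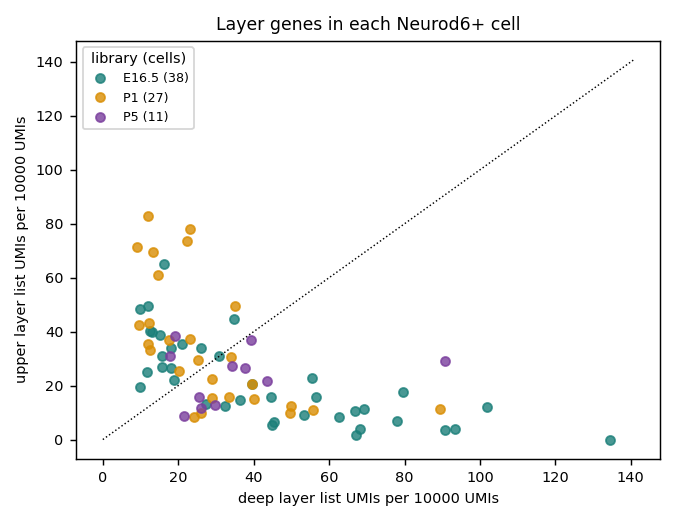
UMIs per 10000 of the upper-layer list (vertical) against the layer 5, layer 6 and subplate lists (horizontal) in each of the 76 *Neurod6*+ cells, coloured by library. The dotted line marks equal sums, which 16 cells of E16.5, 15 of P1 and 2 of P5 exceed on the upper side.

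The 38 cells of E16.5 were not of 1 kind. By limits set after the values were seen, 6 cells held at least 5 UMIs of *Prox1* and all of the 67 counted, 2 others had more than 30000 UMIs, 4 held 15 or more inhibitory genes, and 26 were left. These groups are described and were not tested.

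The 26 cells, of 3196 to 15908 UMIs, carried genes of young neurons. They held 66 of the 70 UMIs of *Insm1*, a factor of newborn neurons. *Sox11*, a factor of immature neurons, was at 6352 CPM, with 18 to 128 UMIs in each cell. *Nfib* was at 4079 CPM and *Igfbpl1*, found in newborn neurons, at 1725 CPM. They held 2 of the 392 *Nrgn* UMIs, no *Camk2a* and 12 UMIs of *Slc17a7* (44.7 CPM).

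The 6 *Prox1* cells differed in many genes. *Prox1* (chr1:190118035-190170714, minus strand) is a homeobox gene known from dentate granule cells and from some interneurons. They held 368 of the 392 *Nrgn* UMIs, with 8 to 290 in a cell and 290 in 1 cell, 257 of the 370 *Rprm* UMIs (12 to 67) and 135 of the 147 *Pcp4* UMIs (9 to 40). *Tshz2* had 65 UMIs against 3 in the other 32 cells, 91.4-fold (29.9 to 455) higher, *Rmst* 35 against 0, *Lrp1b* 39 against 10 and *Nxph3* 23 against 6. They also held 10 UMIs of *Slc17a6* in 5 cells and 12 of *Slc17a7*, and 33 of the 34 *Ebf1* UMIs. *Meis2*, *Lhx2* and *Igfbpl1*, with 214, 120 and 493 UMIs in the other cells, were at 0 in them, and *Nfib* had 8 UMIs against 1405 and *Sox11* 58 (598 CPM). Their depth, 10809 to 21984 UMIs, overlapped that of the remainder, and they held 5 or 6 inhibitory genes each. *Zbtb20*, a hippocampal factor, had 2 UMIs in them (20.6 CPM) next to 181 CPM in the reference. The cells are given by *Prox1* and not by a type.

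The 2 deep cells, of 33144 and 42007 UMIs, held 36 of the 62 *Slc17a7*, 61 of 73 *Nefl*, 24 of 36 *Camk2a*, 24 of 36 *Thy1* and 17 of 24 *Ebf2* UMIs, and 16 of *Sox11*. *Nefl* encodes a neurofilament and *Thy1* a surface protein of mature neurons. The E16.5 levels of *Slc17a7*, *Nefl* and *Camk2a* were thus mostly those of these 2 cells.

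A single cell of 9481 UMIs held all 12 UMIs of *Eomes* and 14 of the 17 of *Neurog2*, with 6 of *Vim*, 5 of *Fabp7*, 5 of *Insm1* and 10 of *Lhx2*. It was the one cell with the markers of intermediate progenitors. Over all cells of E16.5, 7 of 9 genes of the newborn excitatory list that passed were at least 2-fold higher than the reference (6.29% of all genes tested), among them *Insm1* (22.6-fold), *Sema3c* (7.23-fold), *Btg2* (5.82-fold) and *Rnd2* (4.87-fold), against 0 of 2 at P1. The 13 progenitor and cycling genes had 81 UMIs in 23 of the 38 cells, with 5 genes at 0, and summed to 0.503-fold (0.399 to 0.627) of the reference. Of the 4 that passed, *Vim* (20.2-fold (12.7 to 31.4)) and *Fabp7* (48.0-fold (22.5 to 103)), genes of radial glia, were higher and *Pcna*, of DNA replication, lay within 2-fold (0.614-fold). *Mki67*, *Cdk1* and *Ccnb1*, genes of dividing cells, had 0 UMIs and *Top2a* had 1. *Sox2* was lower, at 8.03% (4.01 to 14.4) of the reference at E16.5. It is a progenitor gene, but the study also finds it in *Sst* neurons with long-range projections. *Sox2* made up most of the reference sum of this list, so the lower sum does not describe the other genes.

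**Figure D4:**
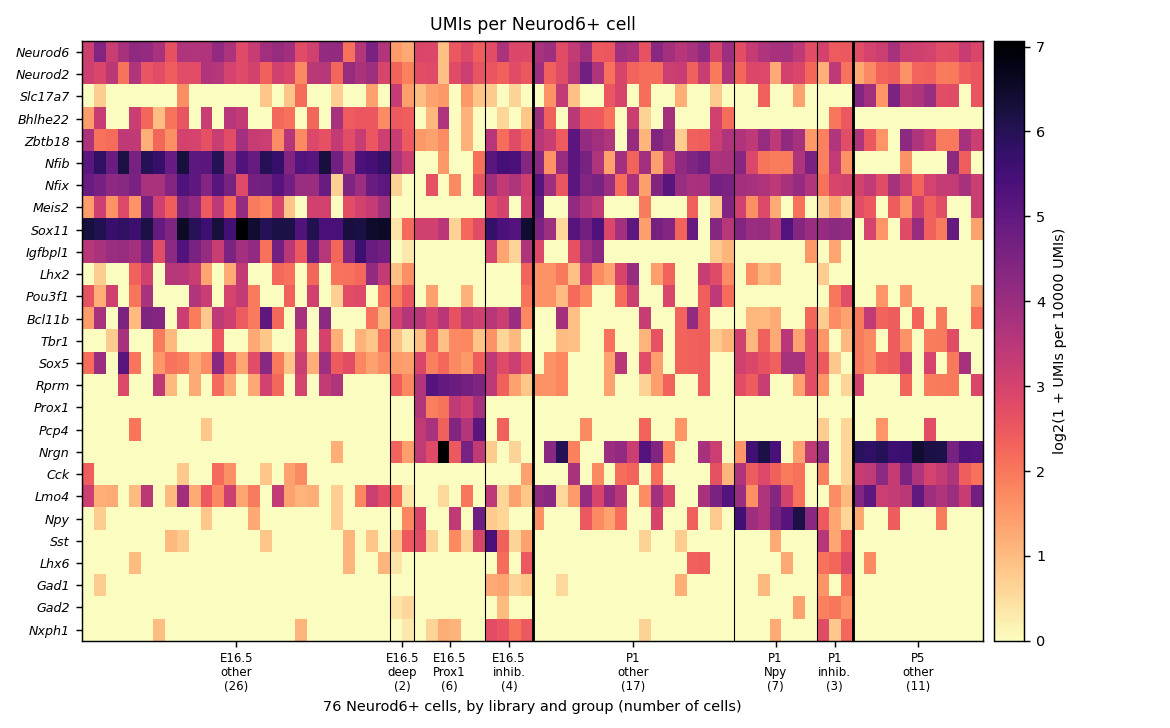
Heat map of log2(1 + UMIs per 10000) for 27 genes (rows) in the 76 *Neurod6*+ cells (columns). Columns run from 26 remaining cells, 2 deep cells, 6 *Prox1* cells and 4 cells with 15 or more inhibitory genes at E16.5 to 17 remaining, 7 *Npy* and 3 inhibitory-gene cells at P1 and 11 cells at P5. *Prox1* is filled in 6 columns, and *Slc17a7* in 10 of the 11 columns of P5.

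At P1 *Npy* (chr6:49822710-49829507, plus strand), the gene of neuropeptide Y, stood out in some cells. The *Neurod6*+ cells had 165 *Npy* UMIs in 18 of 27 cells, and 7 cells with at least 10, a limit chosen after the values were seen, held 143 of them. *Npy* was at 2853 CPM in the 7 cells and 120.0 CPM in the other 20, of which none held more than 7 UMIs. The reference of P1 had 53617 *Npy* UMIs among 9554090, a higher level than in the 7 cells. These 7 cells held 1 UMI each of *Sst*, *Lhx6*, *Gad1*, *Gad2* and *Nxph1*. Over all 27 cells of P1 *Npy* made up 85.1% (79.2 to 89.8) of the UMIs of *Npy* and *Sst* together, against 71.4% (71.1 to 71.7) in the reference.

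All 7 cells held *Tbr1* (21 UMIs, 3.07-fold, 1.63 to 5.72 of the level in the other 20) and *Sox5* (38 UMIs, 3.76-fold, 2.32 to 6.07), both genes of deep-layer neurons. *Bcl11b*, another such gene, was not higher in them. It had 66 UMIs over all 27 cells and at most 2 in any of the 7. Single cells outside the 7 held 27 and 15 of the 66. The cell of 7196 UMIs among the 7 had 24 UMIs of the upper list and 9 of the deep lists. Higher too were *Adgrl2* (4.49-fold, 2.46 to 8.27), *Nr2f1*, an area-patterning nuclear receptor (3.74-fold, 2.42 to 5.77), and *Pcsk2*, a convertase that processes neuropeptides (3.15-fold, 2.16 to 4.57). *Pantr1*, a noncoding RNA beside *Pou3f3*, had 2 UMIs against 186 (0.0393-fold, 0.00473 to 0.144), and *Bhlhe22*, *Pou3f1* and *Rorb* had 0. The 7 cells had 5316 to 9704 UMIs, within the range of the other cells. At E16.5, by contrast, *Npy* made up 37.0% (30.1 to 44.3) of *Npy* and *Sst* in the *Neurod6*+ cells and 39.2% (38.9 to 39.5) in the reference, and 54 of the 70 *Npy* UMIs lay in 3 of the *Prox1* cells. At P5 the 11 cells had 3 *Npy* UMIs.

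At P5 no such groups were set among the 11 cells. *Slc17a7* had 14, 6, 1, 5, 5, 3, 11, 2, 2, 0 and 3 UMIs in cells of 7005, 4334, 5082, 2309, 5056, 2602, 7183, 3463, 3419, 2362 and 6145 UMIs. *Nrgn* had 8, 24 and 51 UMIs (lowest, median and highest), *Lmo4* 2, 5 and 15, *Cck*, a neuropeptide gene, 1, 4 and 11, and *Nfix* 1, 3 and 5, so each of these 4 genes was in all 11 cells. A single *Lhx6* UMI was found among them. *Bhlhe22*, *Lhx2*, *Igfbpl1* and *Prox1* had 0 UMIs.

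Genes of maturing neurons had higher levels in the P5 cells than in those of E16.5. Of 30 listed, 26 passed the filter in that comparison and 18 were at least 2-fold higher and 0 lower, with a median log2 ratio of 1.78, where 24.8% of all 2031 genes tested were higher and 15.5% lower. In the reference the same genes gave 16 of 26 and 1.86. Without the *Prox1* and deep cells of E16.5 the count was 20 of 26. Of 19 genes of immature neurons that passed, 7 were at least 2-fold lower and 1 higher at P5, with a median of -0.67, against 10 lower and -1.23 in the reference, and 6 of 19 without the *Prox1* and deep cells.

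*Nrgn* was 7.13-fold (6.08 to 8.34) and *Slc17a7* 8.68-fold (5.88 to 12.7) higher at P5 than at E16.5, although 388 of the 392 *Nrgn* UMIs of E16.5 and 48 of the 62 *Slc17a7* UMIs came from the *Prox1* and deep cells. *Nefl* was at 144, 72.8 and 469.8 CPM (7.36, 7.48 and 36.0-fold the reference) and *Mef2c*, an activity-regulated factor, at 833, 3415 and 1491 CPM, the highest at P1. *Sox11* went from 4168 to 1529 and 531 CPM, next to 3638, 1785 and 409.6 CPM in the reference. *Nfib*, a nuclear factor I gene, went from 2789.8 to 1105 and 163 CPM and was 27.5-fold, 14.5-fold and 6.28-fold above the reference. *Igfbpl1* went from 973 to 120.0 CPM and 0 UMIs, at least 15.9-fold lower at P5 than at E16.5. *Cd24a*, a surface protein of immature neurons, was at 557, 1011 and 511 CPM, which was 1.42, 2.56 and 6.32-fold the reference.

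**Figure D5:**
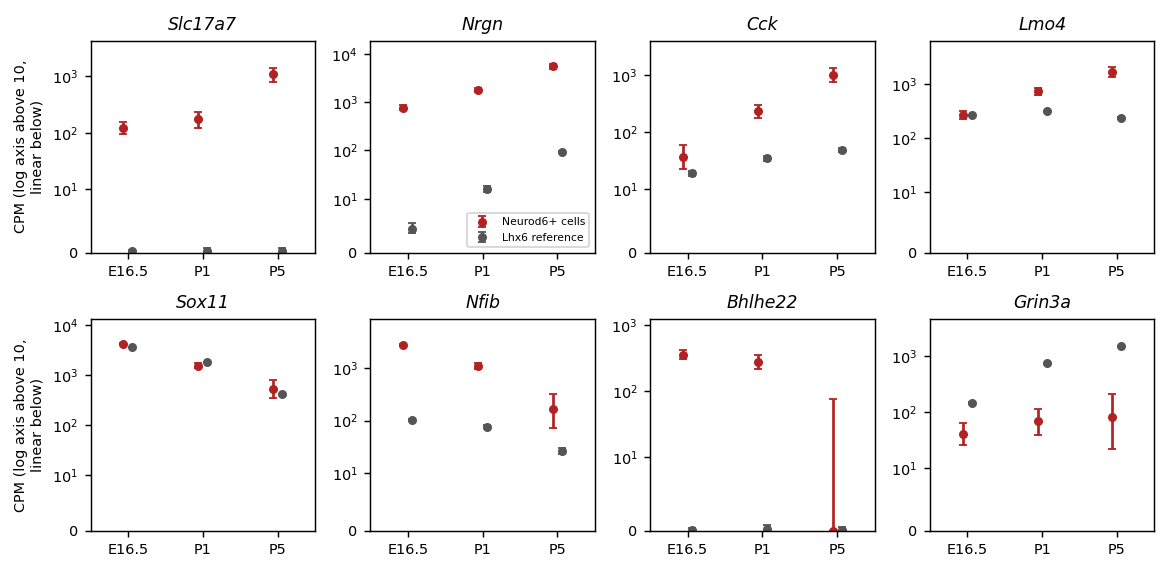
Level in CPM with 95% Poisson intervals at E16.5, P1 and P5 for 8 genes in *Neurod6*+ cells (red) and in the *Lhx6*+ reference (grey), on an axis that is logarithmic above 10 CPM and linear below. *Slc17a7*, *Nrgn*, *Cck* and *Lmo4* are highest at P5 and *Sox11*, *Nfib* and *Bhlhe22* at E16.5 in the *Neurod6*+ cells, while *Grin3a* runs from 143 to 1491 CPM in the reference and from 41.5 to 81.7 CPM in the *Neurod6*+ cells.

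Glutamate receptor genes showed both directions. Of 24 genes for glutamate signalling, 4, 5 and 5 were at least 2-fold higher and 8, 7 and 2 lower than the reference, of 24, 23 and 16 that passed. Over all genes tested 6.29%, 5.82% and 11.7% were higher and 6.74%, 6.42% and 8.26% lower, and the 2 of 16 at P5 lay near that share. *Grin3a*, an NMDA receptor subunit, was at 41.5, 68.5 and 81.7 CPM against 143, 737 and 1491 CPM, and the AMPA receptor subunit *Gria1* was at 16.2%, 19.3% and 16.3% of the reference. *Gria2* (1.48, 1.53 and 1.83-fold) and *Grin2b* (1.00, 1.32 and 1.69-fold) lay within 2-fold of it. The glutamate transporter *Slc1a2* was at 1.82, 3.80 and 5.29-fold and the kinase subunit *Camk2b* at 2.44, 2.96 and 2.95-fold the reference level. *Grm5*, a metabotropic receptor, was lower at E16.5 (37.5% of the reference) and higher at P5 (2.18-fold), at 154, 398 and 980.4 CPM.

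Of 22 axon guidance and adhesion genes, 8 of 21, 4 of 19 and 3 of 7 were at least 2-fold higher and 0, 1 and 1 lower, beside the same shares over all genes tested. *Cntn2* (TAG-1), an adhesion molecule of growing corticofugal axons, was at 344, 137 and 61.3 CPM and 17.9, 3.75 and 0.936-fold the reference level. Its P5 value rests on 3 UMIs in 3 cells, below the filter and too few to place it against the reference. *Nrp1*, a semaphorin receptor, was at 9.18-fold and 3.34-fold, its coreceptor *Plxna4* at 2.92, 1.92 and 2.93-fold and the ephrin receptor *Epha4* at 9.56, 1.83 and 4.75-fold. *Epha5* was at 64.9%, 57.4% and 40.6% of the reference.

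Outside the lists, the genes with the largest excess in each library were *Meis2*, *Nfix*, *Islr2*, *Arpp21*, *Caln1*, *Sybu*, *Nlgn1* and *Lingo1*, out of 1884 that passed the filter in all 3. *Meis2*, a TALE homeobox gene, was at 423, 364 and 408 CPM and 137, 116 and 1470.2-fold the reference level. *Nfix*, of the same family as *Nfia* and *Nfib*, was at 1354, 1354 and 797 CPM, 1209.7, 85.1 and 108-fold the reference, and in 34 of 38, 27 of 27 and 11 of 11 cells against 0.667%, 3.61% and 1.86% of the reference (27, 25 and 11 cells at 2000 UMIs each). *Islr2*, a membrane protein of growing axons, was at 243, 35.1 and 34.7-fold, *Arpp21*, a phosphoprotein of cortical neurons, at 19.1, 77.8 and 58.2-fold and *Caln1*, a calcium-binding protein, at 24.5, 32.3 and 15.9-fold the reference. The synaptic adhesion gene *Nlgn1* was at 5.63, 4.44 and 7.15-fold.

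Lowest against the reference in each library were *Rpp25*, *Neto1*, *Nrxn3*, *Ubash3b*, *Kcnc2*, *Cacng3*, *Vstm2a* and *Kcnip1*. *Neto1*, an auxiliary subunit of kainate receptors, was at 6.10%, 16.4% and 16.5% of the reference, and *Nrxn3*, a presynaptic neurexin, at 94.8, 244 and 163 CPM against 1089, 1502 and 913 CPM. *Kcnc2*, a fast potassium channel of interneurons, was at 15.2%, 19.1% and 10.2%, *Cacng3*, an AMPA receptor auxiliary subunit, at 20.0% and 20.3% at E16.5 and P5 with 0 UMIs at P1, and *Kcnip1*, a potassium channel partner, at 13.8% and 25.6% at E16.5 and P1 with 0 UMIs at P5.

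Within the *Neurod6*+ cells the genes outside the lists with the largest ratio of P5 over E16.5, and P1 between, included *Trbc2*, *Rasgrp1*, *Nbl1*, *Ak5*, *Sv2b*, *Necab1* and *Gm40841*. *Trbc2* was at 0, 51.4 and 266 CPM with 0 UMIs at E16.5 and was at least 44.8-fold higher at P5. *Rasgrp1*, a Ras activator, was at 0, 17.1 and 204 CPM and at least 34.5-fold higher. *Sv2b*, a vesicle protein, was at 5.92, 116 and 347 CPM (58.6-fold, 17.0 to 312). *Necab1* was at 3.95, 218 and 245 CPM, nearly as high at P1 as at P5.

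The 8 genes with the smallest ratio, *Gnb2*, *Dab1*, *Ldhb*, *Psmb1*, *Snrpf*, *H2afv*, *Mdh2* and *Cdk2ap1*, all had 0 UMIs among the 11 cells of P5. *Gnb2*, a G protein subunit, was at 553, 308 and 0 CPM, at least 9.02-fold lower at P5. *Dab1*, the adaptor of the reelin pathway by which excitatory neurons take their layer, was at 288, 171 and 0 CPM, at least 4.70-fold lower at P5, and was 55.2-fold and 17.1-fold the reference level at E16.5 and P1. The bounds of the other 6 lay between 3.71 and 4.32-fold.

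The ratio to the reference was larger at P5 than at E16.5 by the most for *Cck*, *Pcsk2*, *Gm40841*, *Gucy1a1*, *Arhgap20* and *Gucy1b1*. *Cck* was at 37.5, 236 and 1021 CPM, 1.98-fold (1.18 to 3.13), 6.80-fold (5.02 to 9.07) and 20.7-fold (15.2 to 27.7) the reference. *Gucy1a1* and *Gucy1b1*, the subunits of the nitric oxide receptor guanylyl cyclase, went from 0.938-fold to 8.54-fold and from 1.51-fold to 11.8-fold. It was smaller by the most for *Nos1*, *Ddah1*, *Afap1*, *Rcan2*, *Mgll* and *Cort*, which all had 0 UMIs at P5.

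*Nos1*, neuronal nitric oxide synthase and a marker of long-range projecting *Sst* neurons, had 27, 13 and 0 UMIs. It was at 53.3, 55.7 and 0 CPM against 5.88, 378 and 384 CPM, so the *Neurod6*+ cells lay 9.07-fold (5.75 to 13.8) above the reference at E16.5, at 14.8% (7.85 to 25.3) of it at P1 and at least 6.27-fold below it at P5. It was in 14 of 38 (36.8%, 21.8 to 54.0), 10 of 27 (37.0%, 19.4 to 57.6) and 0 of 11 *Neurod6*+ cells against 1.43%, 18.2% and 17.3% of the reference, and at 2000 UMIs per cell in 5, 5 and 0 against 0.768%, 16.6% and 14.9%.

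Markers of other cells ranged from near 0 to above the reference, and their part in the other results was not tested. Summed microglial and vascular genes reached at most 3.95 and 1.97 CPM, and red blood cell genes 3.95 CPM. The oligodendrocyte list summed to 31.6, 25.7 and 0 CPM with *Olig1*, *Olig2*, *Pdgfra* and *Sox10* at 0. The astrocyte and radial glia list summed to 103, 55.7 and 163 CPM against 24.8, 76.7 and 95.02 CPM in the reference, which was 4.14-fold (3.05 to 5.51) at E16.5. *Ttyh1* (24 UMIs) and *Fabp7* (17 UMIs) held most of its 52 UMIs at E16.5, and *Aqp4* and *Gja1* were at 0. Of the Cajal-Retzius genes *Trp73*, *Lhx1* and *Lhx5* were at 0, and the list summed to 207, 129 and 102 CPM against 265, 522 and 890 in the reference. Of its genes *Ebf1* (34 UMIs) and *Ebf2* (24 UMIs) were higher at E16.5, in the *Prox1* and deep cells for the most part, and *Reln* and *Cacna2d2* were lower in each library. The hippocampal list summed to 290.2, 583 and 225 CPM against 185, 682 and 307 CPM, with 67 *Prox1* and 71 *Zbtb20* UMIs of 147 at E16.5 and 119 *Zbtb20* UMIs of 136 at P1. Genes induced by dissociation were higher in 0 of 9, 1 of 6 and 0 of 1 that passed and lower in 2, 1 and 1. Over all genes tested 6.29%, 5.82% and 11.7% were higher and 6.74%, 6.42% and 8.26% lower. So few genes passed that these counts are not read against those shares.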

How the data were processed

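GFP+ cells of the NCx were profiled with 10x Genomics in 1 library per stage (25638779, 15654107 and 13429055 UMIs at E16.5, P1 and P5). Per the file headers, the authors made the deposited matrices of UMI counts per gene and cell by Cell Ranger, version 3.0.2 for P1 and 3.1.0 for the other libraries, with STAR on GRCm38. The counts are not normalized, and reads of more than 1 gene are not in them.

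Cells with more than 700 genes and less than 10% mitochondrial UMIs were kept, as in the study's methods. The study states fewer cells after its own quality control than the 9433 kept here, which were not screened for stressed cells. Doublets were not called. The members, the 20 gene lists and the named-gene rules were chosen with earlier results of these data known. Counts were summed over *Neurod6*+ or reference cells of a library. Log2 ratios used CPM plus 1, and a gene entered where the mean of both CPM values amounted to at least 5 expected UMIs in the *Neurod6*+ cells. Intervals were 95% Poisson (CPM), Clopper-Pearson (shares) and conditional binomial (ratios). For shares, cells were also thinned to 2000 UMIs (seed 1).

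Genes named outside the lists were the 8 highest and the 8 lowest in all 3 libraries, the 8 with the largest and the 8 with the smallest ratio of P5 over E16.5 with P1 between (mean of at least 50 CPM), and the 6 in each direction whose ratio to the reference changed most. Coordinates came from GENCODE on GRCm38 and are 1-based. Python 3.11.15, numpy 2.4.6, scipy 1.17.1, pandas 2.3.3 and matplotlib 3.10.9 were used, and the ratio and filter steps were tested on simulated counts. Alternatives varied the rule, the cell limits, the filter, the depth and the way cells were summed. Some listed or rule-named genes are counted in the lists but not reported here.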

Additional observations from a re-analysis of the deposited data

Results flagged for a closer look

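4 genes lay at least 2-fold above the reference in one library and at least 2-fold below it in another. The difference between libraries was not tested, since each stage had 1 library. *Pcp4*, a calmodulin-binding protein of deep-layer neurons, had a log2 ratio of 2.13 at E16.5 (290.2 against 65.4 CPM) and -2.68 at P5 (102 against 660.4 CPM). At E16.5, 135 of its 147 UMIs lay in the 6 cells with *Prox1*, and the P5 value rests on 5 UMIs. *Grm5* had a log2 ratio of -1.41 at E16.5 (78 UMIs) and 1.12 at P5 (48 UMIs), with 411, 578 and 451 CPM in the reference. *Gm40841*, a predicted gene, had -1.10 at E16.5 (3 UMIs) and 2.12 at P5 (15 UMIs). *Nos1* had 2.98 at E16.5 (27 UMIs) and -8.59 at P5, where 0 UMIs make the ratio a matter of the pseudocount and the bound is at least 6.27-fold lower.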

How the results depend on the processing

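Of 172 alternative values, 155 stayed within the limit for a like value and 17 moved. The values are counts of genes and shares of cells, which have no direction to reverse. Thinning each cell to 2000 UMIs gave 9 of 10, 8 of 9 and 3 of 4 excitatory genes at least 2-fold higher (18, 14 and 6 in full data), 12 of 18, 13 of 19 and 1 of 3 layer genes (25, 23 and 8), and at P5 6 of 7 inhibitory genes lower (13). With no count filter, P5 gave 13 of 19 excitatory, 25 of 27 inhibitory and 24 of 50 layer genes. Both changes alter how many genes are tested by construction. With at least 3 *Neurod6* and 2 *Neurod2* UMIs, the P5 share was 0.101%, with 5 of 6 inhibitory and 1 of 3 layer genes. Limits of 1000 genes and 5% mitochondrial UMIs left 1 cell at P1 (0.149%), with 3 of 4 inhibitory genes, 1 of 1 layer genes and no excitatory gene that passed. Leaving out cells with *Lhx6*, *Gad1* or *Gad2* gave 0.680% at P1. The counts of maturing genes ran from 12 to 21 (66.7% to 76.9% of those tested) and of immature genes from 6 to 8. The alternatives that leave out cells with 15 or more inhibitory genes, over 30000 UMIs or at least 5 *Prox1* UMIs were chosen after seeing the data. None of these limits removes a cell at P5, and only the limit on inhibitory genes removes cells at P1. Where no cell was removed, the counts against the reference could not move, yet they are among the 155. At P5, 1 UMI was 20.4 CPM, which limits every low value there. No paired analysis was possible because each stage had 1 library with no replicate number, and no library could be left out.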

Other observations

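*Grp*, the gene of gastrin-releasing peptide, had 1, 7 and 11 UMIs in the *Neurod6*+ cells, in 1, 7 and 6 cells, and was 52.7-fold (24.6 to 103) the reference at P5. *Reln*, a secreted protein of Cajal-Retzius cells and of many interneurons, had 13 UMIs at E16.5, 11 of them in the 2 cells over 30000 UMIs, and was at 17.9% of the reference. *Zbtb20* had 71, 119 and 0 UMIs. Of the genes induced by dissociation, *Fos* was at 16.3% (7.03 to 32.2) of the reference at E16.5 and *Junb* 5.93-fold (2.72 to 11.6) at P1.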
